A study of Sorghum bicolor with 24 samples.

Results

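Of 24 RNA-Seq libraries of sorghum, 6 shoot libraries were compared: 3 from seedlings given abscisic acid (ABA) and 3 from seedlings given its NaOH control. They were chosen by their labels alone, as the shoots with 20 μM ABA and the shoots with NaOH, and every gene model with enough reads entered the comparison. All plants were Sorghum bicolor genotype BTx623, an inbred line with no introduced gene, grown in hydroponic solution and treated on day 8 for 27 h, so that they were 9 days old at harvest. ABA is dissolved in NaOH, and the control plants received the NaOH alone. The shoots of 10 plants were harvested from each of 3 buckets, and the RNA of the buckets was pooled, so a library is 1 pool of plants and not a single plant. Replicates 1, 2 and 3 were 3 hydroponic experiments, and values of 3 libraries are given in that order. The remaining 18 libraries were shoots with PEG or H2O and the roots of the same plants; 3 of them, the H2O shoots, serve here as untreated shoots that the contrast of ABA and NaOH does not hold.

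ABA is the hormone through which plants meet water shortage. Bound to its receptors it holds back protein phosphatases of type 2C, which frees kinases of the SnRK2 family, and these activate bZIP transcription factors that bind the ABA-responsive element (ABRE) of many promoters. In leaves the hormone closes stomata, slows growth and turns on genes for protective proteins and small solutes. Sorghum is a C4 grass, in which the leaf divides carbon fixation between mesophyll and bundle sheath cells, and much of the nuclear messenger RNA of a young leaf encodes the photosynthetic machinery of the chloroplast.

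Reads that fell on gene models numbered 13753888 to 22098525 in the 6 libraries, and 23301 to 24047 gene models had a read. Beyond counting error, genes varied between replicates with a common biological coefficient of variation of 0.2054. The labelled tissue was borne out by its markers. The 9 light-harvesting genes summed to 45400 to 54100 CPM (reads scaled to a library of one size) in NaOH shoots against 20.8 to 33.0 in H2O roots. The 79 genes chosen as root markers in the H2O libraries summed to 4.4 to 9.14 CPM in ABA shoots and 9.37 to 13.3 in NaOH shoots, against 16100 to 17800 in H2O roots; none of the 79 was called. NaOH replicate 2 stands apart in its making, since it was base-called with RTA version 1.6, where replicate 2 of ABA shoots was called with version 1.5. Replicate 1 of both groups has version 1.5 and replicate 3 of both has version 1.6. Without that library 718 genes were called higher and 928 lower, and several results that rest on it are given with and without it.

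Shoots given ABA differed from NaOH shoots in 1625 of 22667 genes tested (7.17%). Transcripts of 717 genes rose (3.16%) and those of 908 fell (4.01%). A gene was called when edgeR's quasi-likelihood test gave a Benjamini-Hochberg adjusted p under 0.05, the log2 fold change was at least 1 in either direction, and the median depth was at least 2X in 1 of the groups. At an unadjusted p under 0.05 there were 7625 genes. The rises were larger than the falls: 65 genes rose and 14 fell by 4 or more on the log2 scale, and the medians over called genes were 1.56 and -1.37. Of the 717 risers 715 were higher in each of the 3 replicate pairs, and 904 of the 908 fallers were lower in each. The 717 risers took 11.9, 12.3 and 11.1% of all reads in the ABA libraries and 3.07, 2.79 and 2.81% in the NaOH libraries, and the 908 fallers took 6.38, 7.62 and 6.76% against 16.3, 16.4 and 17.7%. Those shares describe genes chosen by the same comparison and carry no test. With library sizes in place of TMM factors the split turned to 887 higher and 692 lower, because the median log2 fold change of all tested genes moved from -0.03 to 0.09.

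**Figure D1:**
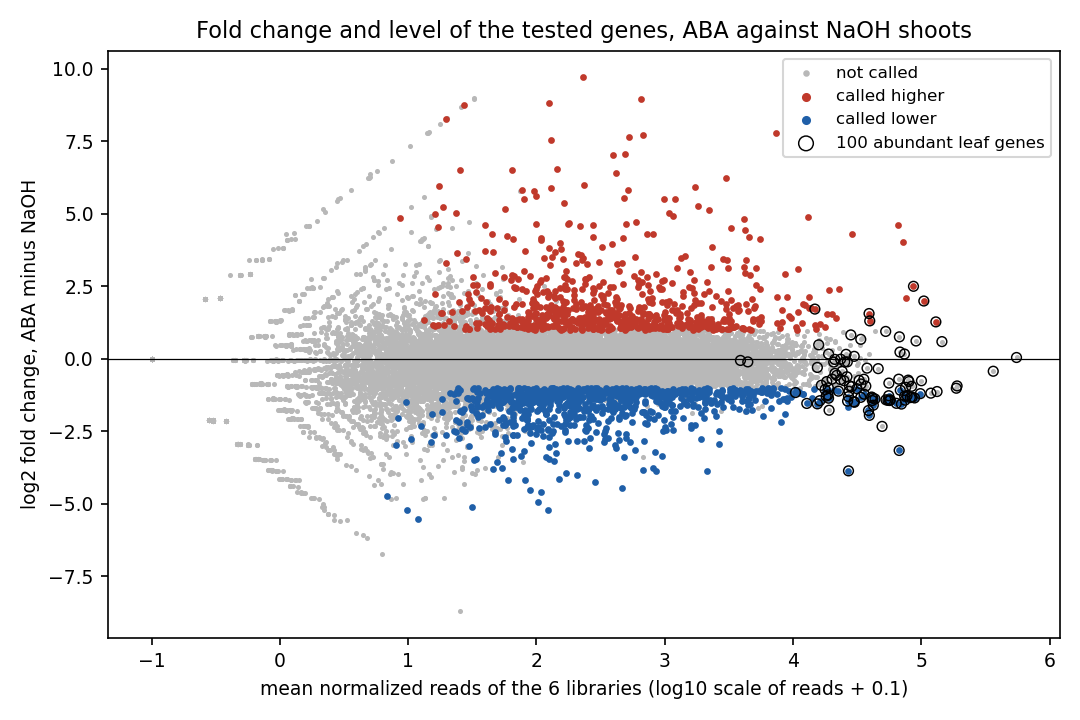
Each point is 1 of 22667 genes, with the mean normalized reads of the 6 libraries on a log10 axis and the log2 fold change of ABA minus NaOH shoots on the other axis; red and blue mark the 717 genes called higher and the 908 called lower, and rings mark the 100 most abundant leaf genes. The 65 rises of 4 or more outnumber the 14 falls of that size, and most ringed genes lie below 0.

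Functions below are read from the gene descriptions in the study's tables. These exist only for genes that the study itself listed as changed in at least 1 of its comparisons, so they cover 3990 of the tested genes, of which 716 rose (17.9%) and 752 fell (18.8%). A count for a gene list has to be read against those shares. It is not a share of the gene family in the genome, and since the study chose these genes on the same samples it is not independent evidence of a direction. The same holds for the share of reads of such a list. Its exact permutation p, given for some lists below, is therefore only descriptive. A further 12 lists were added after the values had been seen, and are named as such.

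The genes that handle ABA itself and carry its signal were moved in both directions. Of 5 genes for ABA synthesis and breakdown 2 rose and 1 fell. Sb02g026600, ABA 8'-hydroxylase 3, encodes an enzyme that starts the breakdown of ABA: the ABA libraries held 8584, 7065 and 6710.3 normalized reads (reads scaled by TMM to the mean library) and the NaOH libraries 918, 1009 and 950.1. The groups did not overlap, as was so for 34.8% of all tested genes, and the gene rose by 2.96 ± 0.27 on the log2 scale (standard error, SE, of the fit; adjusted p = 2.01e-07, edgeR); values written in this way from here on are log2 fold changes of ABA minus NaOH shoots with their SE. ABA 8'-hydroxylase 1 (Sb04g030660) had 503, 445 and 455 against 159, 230.4 and 201 reads and rose by 1.24 ± 0.35; without NaOH replicate 1 its call was lost, at a log2 fold change of 1.11. The third hydroxylase, Sb07g022990, had a mean of 33.2 against 17.7 reads and did not pass the test (0.91 ± 0.72). On the side of synthesis stand the 9-cis-epoxycarotenoid dioxygenases, which cleave the carotenoid precursor. The abundant one, Sb04g030640-1, held 6762, 4191 and 5796 reads with ABA and 15680.4, 10754 and 14774 with NaOH. It fell by 1.30 ± 0.43 on the log2 scale, but only just passed (adjusted p = 0.0363, edgeR), and the call was lost when any 1 of the 6 libraries other than NaOH replicate 2 was left out, with log2 fold changes of -1.46 to -1.13. The rarer Sb01g013520 was not called (1.04 ± 0.77).

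Downstream, some of the phosphatases, a kinase and an ABRE-binding factor rose. Of 4 described type 2C phosphatases 2 were called, both higher. Sb03g029890 went from 1.67, 4.29 and 3.53 reads in the NaOH libraries to 184, 157 and 133 in the ABA libraries, with no overlap and a log2 fold change of 5.51 ± 0.65 (adjusted p = 5.55e-06, edgeR). The more abundant Sb03g026070 went from 413, 461 and 517 to 2430.5, 2329 and 2134 reads (2.31 ± 0.15), while Sb01g007340 (0.48 ± 0.22) was not called, nor was the scarce Sb01g039615 (-2.64 ± 0.66), which missed the depth limit. The kinase SAPK1 (Sb01g033570), a member of the SnRK2 family, rose by 1.22 ± 0.17, and SAPK3 (Sb01g028760-1) stood at 111 against 103 reads and did not pass. The largest called change among these lists was that of the ABRE-binding factor BZ-1, a bZIP protein (Sb03g030050-1). Its libraries held 837, 857 and 788 reads with ABA and 8.36, 12.9 and 7.06 with NaOH, and those of H2O shoots 8.42, 5.55 and 6.75. That is a log2 fold change of 6.41 ± 0.59 (adjusted p = 2.79e-07, edgeR) with closely grouped replicates. The other ABRE-binding factor, Embp-2 (Sb01g004080), had 1 read in all NaOH libraries together and means of 10.1 against 0.39 normalized reads, a ratio of 23.2 (95% exact counting interval 3.8 to 953.4), and missed the depth limit. No gene described as an ABA receptor was among the described genes.

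Among genes for proteins that protect other proteins and membranes from drying, some rose strongly and none of the described members fell. Of 8 late embryogenesis abundant (LEA) proteins and dehydrins 3 rose, with a list median of 4.15 on the log2 scale; without NaOH replicate 2 the count was 5. Dehydrin DHN1 (Sb09g018420), which binds water and membranes in drying tissue, held 5809, 28353 and 9861 reads with ABA, 53.5, 103 and 38.9 with NaOH and 21.9, 103 and 57.4 with H2O. The groups were far apart, but the ABA libraries also differed among themselves, with replicate 2 highest, and the log2 fold change was 7.80 ± 0.62 (adjusted p = 4.43e-08, edgeR). The group 3 LEA protein Sb09g027110-1 rose by 5.53 ± 1.06. Oleosin Sb01g050670, a coat protein of oil bodies, had 614, 1574 and 485 against 43.5, 62.1 and 42.4 reads and again a highest value in ABA replicate 2 (4.16 ± 0.76). The 8 LEA and dehydrin genes together took 0.0474, 0.153 and 0.0685% of reads with ABA and 0.0053, 0.00949 and 0.00515% with NaOH, an exact permutation p of 0.1, the smallest that 3 against 3 libraries allow. Most of the reads of the list with ABA came from DHN1 alone, so the share and its p mainly describe that gene. The list holds only genes that the study had listed as changed, so this p is not independent of that choice.

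Many genes for heat shock proteins rose as well. Of 8 small heat shock proteins, chaperones that hold unfolded proteins, 5 rose (list median 2.03), and 5 of 7 other heat shock chaperones rose as well in a list added after the values had been seen (median 2.03). Heat shock protein 26 (Sb01g041180) held 1184, 4940.0 and 4035 against 38.5, 80.4 and 44.7 reads, a log2 fold change of 5.92 ± 0.84 (adjusted p = 7.25e-05, edgeR). A pair of class I genes was nearly silent in control shoots: Sb03g006880 had 5.02, 11.8 and 3.53 reads with NaOH and 197, 909 and 283 with ABA, and Sb03g006890 had 3.34, 7.50 and 1.18 and 134, 554 and 83.2. The libraries did not overlap, and ABA replicate 2 was the highest of both genes. The neighbouring Sb03g006870 was already present in NaOH shoots at a mean of 259 reads and rose by 2.68 ± 0.45. Of the large chaperones, heat shock protein 70 (Sb03g039360) had 2106, 3605 and 3172 against 323, 578 and 431 reads (2.73 ± 0.33), and HSP101 (Sb09g025900), which takes protein aggregates apart, rose by 2.03 ± 0.34. Of 3 genes with heat stress transcription factor in their description 1 was called, RHSF5 (Sb01g005250, 1.12 ± 0.11). By the study's family labels there were 9 heat shock factors, of which 3 rose and none fell (median 0.99). The small heat shock proteins serve here also as markers of heat or handling: all 8 summed to 205 to 429 CPM with ABA, 29.9 to 41.7 with NaOH and 34.8 to 49.6 with H2O, and whether handling had a part in this was not tested.

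Non-specific lipid-transfer proteins, small secreted proteins that carry lipids towards the plant surface, rose in 5 of 8 cases and fell in 1 (median 1.65). They are among the most abundant messages of the shoot. Sb08g002690 had 185240.3, 159459 and 157556 reads with ABA and 48049, 36174 and 41529 with NaOH, and Sb08g002670 had 135882, 171330.0 and 136256 and 26137, 25982 and 26009. Both pairs of groups lie well apart with little spread, and the log2 fold changes were 2.00 ± 0.37 and 2.5 ± 0.43. Sb08g002680, the gene numbered between them, and Sb03g039880 started from means of 370.0 and 462 reads and rose further, by 4.45 ± 0.45 and 4.22 ± 0.28. The 3 genes on chromosome 8 carry neighbouring numbers, and reads of near-identical copies may have been shared or set aside as not unique. Together the 8 members took 1.95, 1.84 and 1.68% of all reads with ABA and 0.451, 0.364 and 0.371% with NaOH.

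Genes for compatible solutes, the small molecules that hold water in the cell, rose in 4 of 6 described cases (median 1.76), and none fell. Delta-1-pyrroline-5-carboxylate synthetase (P5CS, Sb03g039820-1), the first enzyme of proline synthesis, went from 844, 1327 and 987 to 7603, 11186 and 8864 reads, a log2 fold change of 3.13 ± 0.19 (adjusted p = 3.76e-09, edgeR). Phosphoethanolamine N-methyltransferase (PEAMT), which makes the choline from which glycine betaine is built, is encoded by a pair of genes. Sb09g027360 was one of the major messages of ABA shoots, with 121576, 128454 and 122568 reads against 26376, 32263 and 28070.4, and rose by 2.10 ± 0.16; Sb03g031950 rose from a lower level by 2.03 ± 0.23. Betaine aldehyde dehydrogenase (Sb07g020650), the last step to glycine betaine, had 12941, 15833 and 12159 against 4569, 5457 and 4477 reads (1.5 ± 0.12). In none of these genes did a NaOH library reach an ABA library. Of 5 ascorbate and glutathione enzymes, a list added after the values had been seen, 4 rose. Chloroplast ascorbate peroxidase 7 (Sb06g017080), which removes hydrogen peroxide, had 16844, 24424 and 17465 against 4376, 7629 and 4146 reads (1.86 ± 0.19), VTC2 (Sb08g005410), an enzyme of ascorbate synthesis, rose by 2.13 ± 0.35, and glutathione reductase (Sb04g036870-1) by 1.32 ± 0.10.

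The study assayed some of these genes by quantitative PCR, and its primers mark where they were measured. They are shown, forward and reverse and 5′ to 3′, for 3 assayed genes that are described above; the gene spans are those of the deposited tables on the sorghum build sbi1, and the position of each primer within its gene was not determined.
ABA 8'-hydroxylase 1 (Sb04g030660, chromosome 4, 60641627 to 60644513) forward: gaggacgtggagtaccaagg
ABA 8'-hydroxylase 1 reverse: cttgggagcaacctcgaatc
Heat shock protein 70 (Sb03g039360, chromosome 3, 67054051 to 67057207) forward: ctatgtcgccttcaccgacac
Heat shock protein 70 reverse: cacagcttcatgtcactctgaac
PEAMT (Sb09g027360, chromosome 9, 56426448 to 56431434) forward: atgttctacggagggagctagg
PEAMT reverse: cagagctccgtttcagcttc

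**Figure D2:**
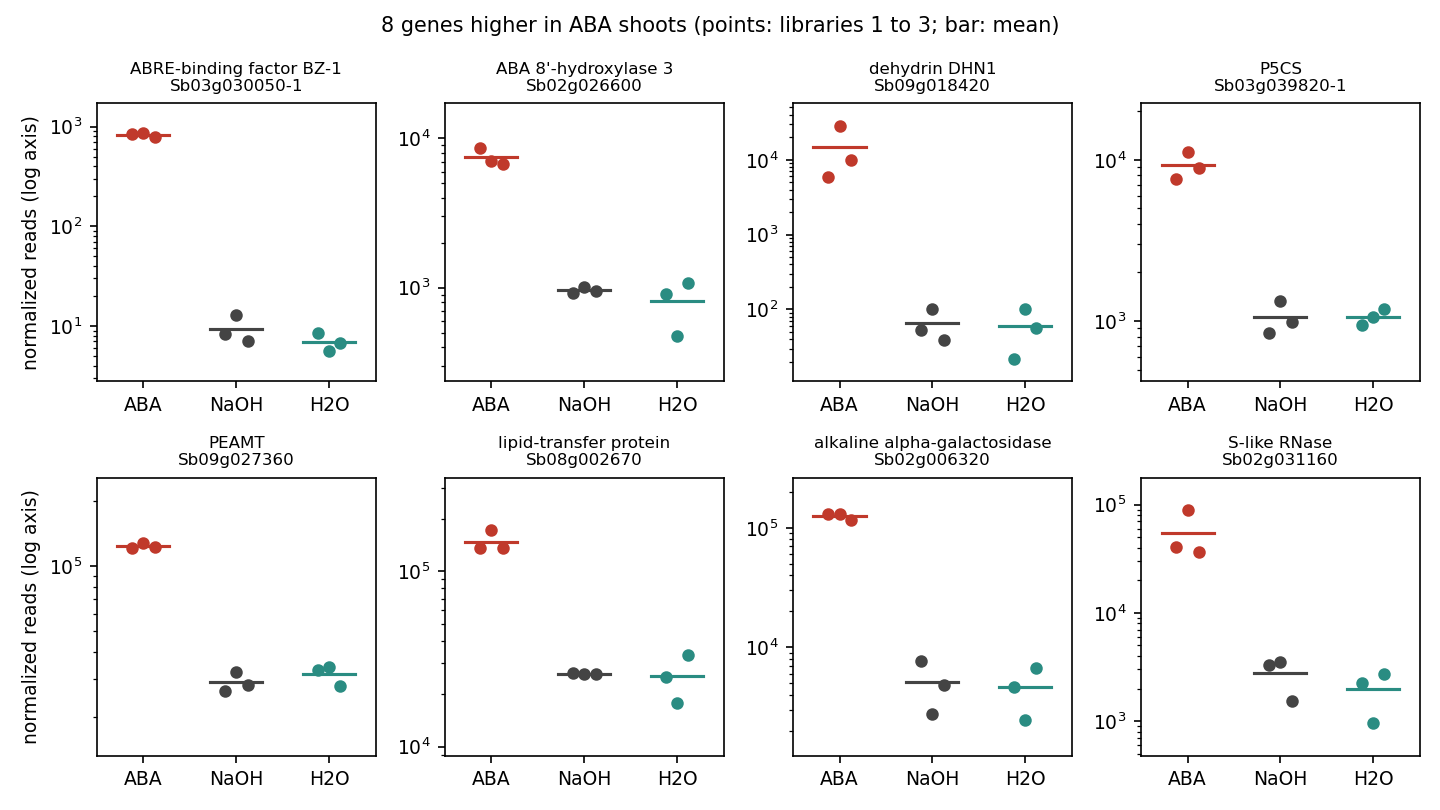
Normalized reads of 8 genes in the ABA, NaOH and H2O shoot libraries on log axes, 1 panel a gene; points are replicates 1, 2 and 3 from left to right and bars are group means. In every panel the 3 ABA points lie above all NaOH points, and the H2O points lie in the range of the NaOH points or near it.

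Genes that split starch and raffinose sugars stand among the largest rises of carbohydrate metabolism, though not all moved together. Of 21 described starch and sucrose genes 9 rose and 4 fell (median 0.95; 2 fell without NaOH replicate 3 or without replicate 1 of all groups). Beta-amylase Sb01g019850, which splits maltose off starch, was close to silent in NaOH shoots, with 1.67, 2.14 and 3.53 reads, and reached 817, 2257 and 869 with ABA. All 3 NaOH libraries held 3 reads or fewer, so the size is given as a ratio of 494.3 with an exact 95% counting interval of 226.8 to 1347.9. Another beta-amylase, Sb01g047500, went from 495, 499 and 389 to 4241, 5277 and 2957 reads (3.17 ± 0.32, adjusted p = 9.75e-07, edgeR). The most abundant beta-amylase, Sb02g035600-1, named after its values had been seen, went the other way, with 28036, 70790.3 and 37871 against 92752, 135419 and 99918 reads (-1.26 ± 0.40). Its call was lost without ABA replicate 1 (-1.01), ABA replicate 3 (-1.14), NaOH replicate 2 (-1.08) or NaOH replicate 3 (-1.32). The large subunit of ADP-glucose pyrophosphorylase (Sb09g029610), which makes the precursor of starch, also rose, from 1598, 2885 and 1562 to 18877, 11481 and 15377 reads (2.92 ± 0.29). Alkaline alpha-galactosidase 1 (Sb02g006320), an enzyme that breaks down raffinose sugars, was among the most abundant risers. It held 131812, 131643 and 115616 reads with ABA and 7648, 2783 and 4872 with NaOH, a log2 fold change of 4.63 ± 0.43 (adjusted p = 2.82e-07, edgeR). On the other side, of 7 genes for raffinose and trehalose synthesis 4 fell and none rose (median -1.20). They include the trehalose-6-phosphate synthase Sb03g034640 (-2.02 ± 0.14) and Sb02g043450, described as the water stress protein WSI76, which had 20.0, 25.9 and 16.8 against 127, 373 and 142 reads. Cell wall invertase Sb04g021810-1, which splits sucrose where it is unloaded, fell by 2.09 ± 0.19 on the log2 scale, from 1205, 1283 and 1515 to 291, 279 and 369 reads.

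Further abundant messages that rose belong to nucleic acid turnover, oxylipins, sulfur and carbon supply. The S-like ribonucleases, secreted enzymes that degrade RNA (a pair added after the values had been seen), took 0.77, 1.24 and 0.668% of all reads with ABA and 0.0565, 0.0638 and 0.0233% with NaOH. Sb02g031170 held 119061, 189840.0 and 101828 against 9731, 11421 and 3940.4 reads (4.03 ± 0.70, adjusted p = 0.000449, edgeR), and its neighbour Sb02g031160 held 40849, 88819.8 and 36229 against 3266, 3522 and 1522 (4.32 ± 0.39). In both genes ABA replicate 2 was the highest library, and no NaOH library came near the ABA libraries. Of 8 lipoxygenase and jasmonate genes 5 rose and 1 fell (median 1.6); the count of risers was 2 without replicate 3 of all groups. The lipoxygenases Sb01g011050 and Sb03g042440, which oxidise fatty acids, rose by 2.36 ± 0.24 and 3.10 ± 0.44, to means of 32062 and 19667 reads. Of 10 sulfate assimilation genes, a list added after the values had been seen, 5 rose and none fell. Adenosine 5'-phosphosulfate reductase (Sb02g034370) had 15721, 21265 and 12874 against 4886, 5059.7 and 6184 reads (1.63 ± 0.28), the sulfate transporter ST1 (Sb01g044090) rose by 1.46 ± 0.22, adenylyl-sulfate kinase Sb05g025240 by 1.69 ± 0.24, and ATP sulfurylase Sb01g008450 by 1.11 ± 0.23, below the fold limit at 0.96 when NaOH replicate 2 was left out.

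The kinases that switch on phosphoenolpyruvate carboxylase, the first carbon-fixing enzyme of C4 leaves, both rose (a pair added after the values had been seen): Sb04g036570 from 289, 242 and 285 to 1621, 1728 and 1235 reads and Sb04g026490 from 898, 617 and 869 to 2678, 3788 and 2689.7. The log2 fold changes were 2.49 ± 0.22 and 1.94 ± 0.22, and the groups lie apart. Hydroxymandelonitrile lyase (Sb04g036350-1), which frees cyanide from the breakdown product of dhurrin, was 1 of the 6 abundant leaf genes that rose, with 175256, 204293 and 172320.1 against 80530.1, 61612 and 85546 reads (1.28 ± 0.25, adjusted p = 0.00111, edgeR). Sb01g001160, described as cytochrome P450 71E1, went the other way, with 67.1, 51.8 and 57.0 against 476, 185 and 580.4 reads (-2.82 ± 0.42). That name belongs to an enzyme of dhurrin synthesis, but whether this gene has that role was not tested. Its fall is therefore not a fall of dhurrin synthesis as a whole. Dhurrinase Sb08g007570 overlapped between the groups and was not called. Of 14 protease and xylanase inhibitors, a list added after the values had been seen, 9 rose and 1 fell (median 1.75). The xylanase inhibitor Sb02g004660 rose by 3.46 ± 0.54, the Bowman-Birk inhibitor Sb03g039800 by 1.88 ± 0.24 and cystatin Sb03g037370-1, an inhibitor of cysteine proteases, by 1.54 ± 0.29. In nitrogen supply, the ammonium transporter AMT1-1 (Sb06g022230) fell from 3447, 2603 and 3745 to 918, 774 and 684 reads (-2.04 ± 0.33), and asparagine synthetase Sb05g000440 rose by 2.34 ± 0.43.

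Genes of the chloroplast's light reactions fell broadly. Of 9 described light-harvesting proteins, which hold the antenna chlorophyll, 7 fell and none rose (median -1.33). The steepest fall was that of Sb03g027030, with 1882, 4201 and 4379.7 reads against 37997, 48850.2 and 65139 and a log2 fold change of -3.86 ± 0.34 (adjusted p = 1.82e-07, edgeR). Its neighbour Sb03g027040, the 9th most abundant leaf gene per kb in H2O shoots, had 8047, 15020.0 and 17619.8 against 108924, 99533 and 154239 (-3.16 ± 0.52). The other members moved less and more evenly: light-harvesting protein type III (Sb02g036380) changed by -1.43 ± 0.28 and CP29 (Sb02g036260) by -1.34 ± 0.34. The 2 that were not called are the most abundant of the list. Sb01g015400, first of all leaf genes per kb, had 102678, 146849 and 123866 against 250022, 234487 and 267402 reads, and Sb07g021260-1 had 60129.8, 82552 and 75471 against 168855, 146120.0 and 179197; neither overlapped, and the adjusted p was 0.16 and 0.0869 (edgeR). With the replicate number as a block Sb07g021260-1 passed at 0.0378, and in the fit of the 12 shoot libraries at 0.00218 (adjusted p, edgeR). The 9 genes took 1.85, 2.31 and 2.15% of all reads with ABA and 5.13, 4.54 and 5.41% with NaOH (exact permutation p = 0.1, the smallest possible). As for every list of described genes, this p is not independent of how the genes were chosen. The calls rest on few libraries: 4 of 9 were left without ABA replicate 1, without ABA replicate 3 or without NaOH replicate 3, and 2 without replicate 1 of all groups, although the list median stayed within the replicate spread. Without NaOH replicate 2 there were 5.

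Of 19 described photosystem and electron transport proteins 17 fell and none rose (median -1.35). The oxygen-evolving enhancer protein 3-1 (Sb02g035610), part of the complex that splits water, had 12691, 22548 and 17268 against 53278, 57514 and 69285 reads and a log2 fold change of -1.78 ± 0.28 (adjusted p = 0.000159, edgeR). Plastocyanin (Sb10g000230), the soluble electron carrier to photosystem I, had 38551, 50359.8 and 40519 against 103369, 106099 and 106156 reads, with no overlap. It fell by 1.29 ± 0.38 on the log2 scale, a call lost without ABA replicate 1 (-1.21) or without ABA replicate 3 (-1.24). Photosystem I subunits XI (Sb03g004560) and N (Sb08g005300-1) fell by 1.53 ± 0.39 and 1.59 ± 0.37. Oxygen-evolving enhancer protein 1 (Sb10g028120-1, -1.12 ± 0.45) did not pass in the fit of all 24 libraries. It passed in the fit of the 12 shoot libraries (adjusted p = 0.00195, edgeR), in the common-dispersion exact test and without replicate 3 of all groups. The other uncalled member was the 1 gene of the list with a log2 fold change above 0, at 1.33. All 19 had groups that did not overlap, beside 58.8% of described genes. Without ABA replicate 3 the number called was 8, without NaOH replicate 2 it was 15, and without replicate 1 of all groups it was 4. In pooled tissue, fewer photosynthetic cells and less of each message per cell cannot be told apart.

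Of 7 described Calvin cycle genes 5 fell (median -1.35; 3 without replicate 1 of all groups), and the share of reads of the list was 0.433, 0.573 and 0.482% with ABA against 1.08, 1.36 and 1.24% with NaOH (exact permutation p = 0.1, the smallest possible). None was called higher, but 1 member had a log2 fold change above 0, at 2.53. Without NaOH replicate 2 the number called higher was 1. Chloroplast phosphoglycerate kinase (Sb09g024340) had 17570.4, 31179 and 21843 against 41548, 74795 and 59168 reads (-1.31 ± 0.20, adjusted p = 7.76e-05, edgeR), triosephosphate isomerase Sb02g031030 fell by 1.28 ± 0.18, fructose-1,6-bisphosphatase Sb01g039980-1 by 1.35 ± 0.27, and glyceraldehyde-3-phosphate dehydrogenase A Sb06g018880-1 by 1.41 ± 0.37. The small subunit of Rubisco (Sb05g003480), the enzyme that fixes carbon dioxide in the cycle, is named after its values had been seen. It had 27522, 44489 and 34599 against 88934, 119579 and 105083 reads and fell by 1.56 ± 0.46, a call lost without ABA replicate 1 (-1.40) or ABA replicate 3 (-1.54). Of 5 described C4 cycle genes 1 rose and 1 fell; the list median was -0.05, but above 0 in 7 of the alternatives and 0.44 without NaOH replicate 2. Phosphoenolpyruvate carboxylase 2 (Sb02g021090) rose from 1528, 1585 and 1614 to 3666, 3953 and 3245 reads (1.20 ± 0.16). The plastid 2-oxoglutarate/malate transporter Sb08g016630 fell by 1.32 ± 0.16. Whether these genes serve the C4 cycle of the leaf was not tested. The C4 list summed to 1850 to 2160 CPM in H2O shoots and 781 to 858 in H2O roots. The Calvin list summed to 10900 to 12200 and 206 to 255. The C4 list holds only described genes, so its counts are not those of the C4 cycle as a whole. Carbonic anhydrase Sb03g029170-1, which supplies bicarbonate to the cycle, varied more between replicates than between treatments: it had 13939, 38129 and 19103 reads with ABA and 11135, 77513 and 19407 with NaOH, so replicate 2 was highest in both groups and the groups overlapped. Its log2 fold change of -0.60 ± 0.48 turned to 0.64 without NaOH replicate 2, and neither value passed the test. The share of reads of the C4 list gave an exact permutation p of 0.6.

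**Figure D3:**
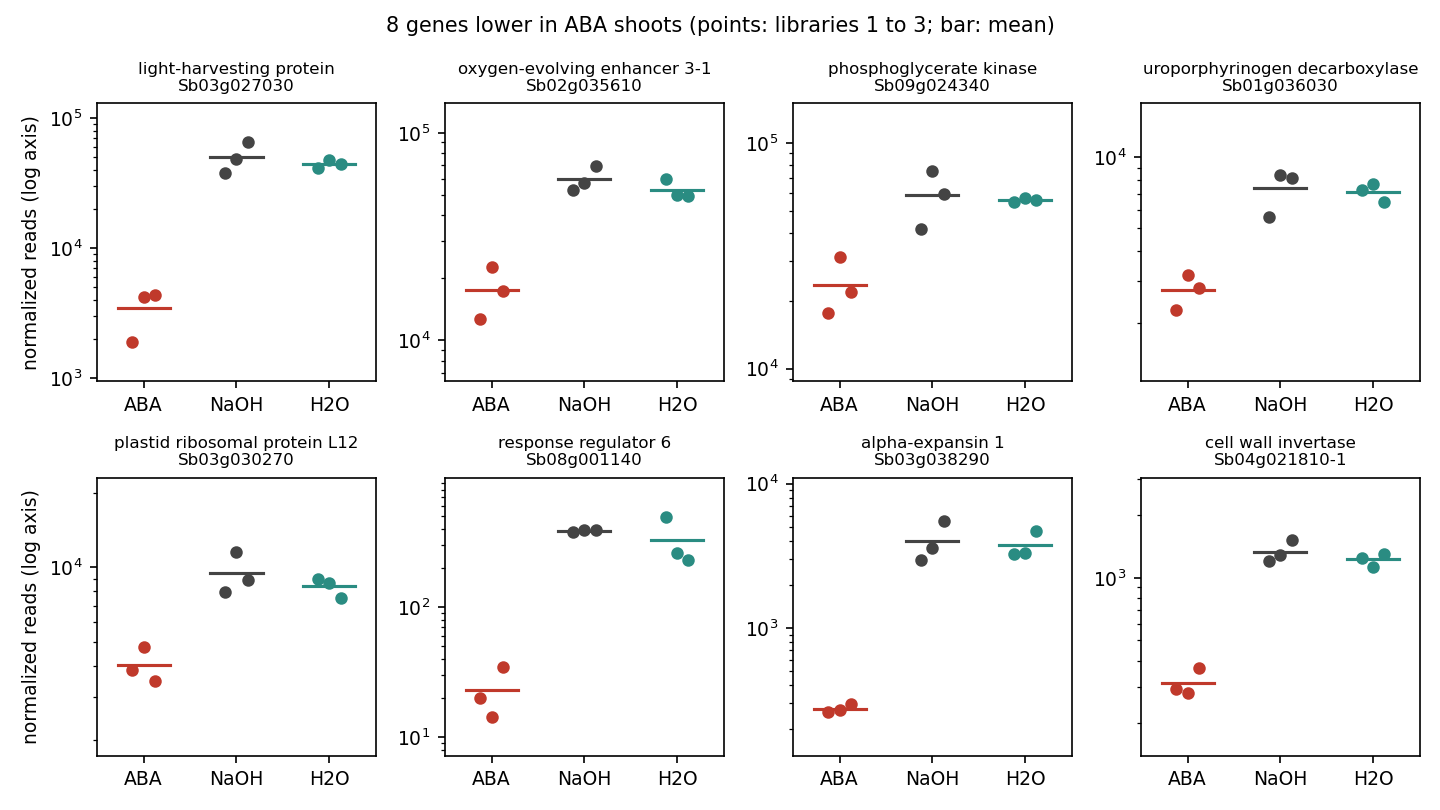
Normalized reads of 8 genes in the ABA, NaOH and H2O shoot libraries on log axes, 1 panel a gene; points are replicates 1, 2 and 3 from left to right and bars are group means. In every panel the 3 ABA points lie below all NaOH points, with the widest gaps for the light-harvesting protein, response regulator 6 and alpha-expansin 1.

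Genes for chlorophyll synthesis and for the plastid's ribosomes fell too. All 7 described genes of chlorophyll synthesis fell (median -1.40), and 6 or 7 did so in every alternative that kept the depth and fold limits. Uroporphyrinogen decarboxylase (Sb01g036030) went from 5580.1, 8406 and 8126 to 2263, 3189 and 2792 reads (-1.42 ± 0.16, adjusted p = 3.56e-06, edgeR). Glutamyl-tRNA reductase Sb01g017860, the first step of the pathway, fell by 1.46 ± 0.24, and the magnesium chelatase subunits Sb01g003860 and Sb08g004300, which commit the pathway to chlorophyll, by 1.24 ± 0.15 and 1.16 ± 0.17. Protochlorophyllide reductase B (Sb01g018230), the light-driven step, was named after its values had been seen and had 16629, 16860.0 and 15173 against 69106, 53512 and 64891 reads (-1.95 ± 0.34). None of 6 genes described as of senescence or chlorophyll breakdown was called (median 0.19, and -0.0013 without NaOH replicate 2). Of 9 chloroplast ribosomal proteins 8 fell and none rose (median -1.23), and 6 fell without NaOH replicate 2. Ribosomal protein L12 (Sb03g030270) had 3846, 4777 and 3469.7 against 7974, 11501 and 8896 reads (-1.23 ± 0.16). The 9 genes took 0.095, 0.106 and 0.0809% of reads with ABA and 0.172, 0.236 and 0.18% with NaOH (exact permutation p = 0.1, the smallest possible), with NaOH replicate 2 highest. Only 2 cytosolic ribosomal proteins were described. Both were called lower, but neither was without NaOH replicate 2: 40S protein S16 (Sb08g001870) had 1133, 3122 and 1607 reads in the NaOH libraries and 893, 1018 and 760.3 with ABA, and its log2 fold change moved from -1.14 to -0.62. Of 17 histones 2 were called lower, a count that moved with the test and with the libraries: 9 with DESeq2, 14 with the common-dispersion exact test, 0 without NaOH replicate 2 and 10 without NaOH replicate 1.

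The most abundant messages of the leaf can be taken without regard to descriptions. The 100 gene models with the highest reads per kb of exon in H2O shoots, libraries that the comparison does not use, took 21.1, 22.7 and 21.1% of all reads with ABA, 30, 27.6 and 29.6% with NaOH and 29.4, 25.8 and 28.2% with H2O. The ABA and NaOH libraries did not overlap (exact permutation p = 0.1, the smallest possible), and the mean share with ABA was 0.744 of that with NaOH. Of the 100 genes 40 fell and 6 rose, beside 4.01% and 3.16% of all tested genes. Those shares include genes under the 2X depth limit, which could not be called, so they are not a background of like abundance. The median log2 fold change of the 100 genes was -0.94. Among the 55 that have a description 36 fell and 6 rose, and among the 45 without one 4 fell and none rose, with medians of -1.32 and -0.70. Since a description marks a gene that the study listed as changed, that difference is not independent of how the genes came to be described. Leaving out ABA replicate 3 left 21 genes called lower, and leaving out replicate 1 of all groups left 12.

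The 6 abundant genes that rose are hydroxymandelonitrile lyase, the lipid-transfer proteins Sb08g002690 and Sb08g002670, and 3 that are named here after their values had been seen. The 22 kDa drought-inducible protein Sb08g004190-1 had 71327, 43157 and 61136 reads with ABA and 29831, 10352 and 19148 with NaOH, so that replicate 2 was lowest in both groups. The lipid-transfer protein Sb01g049830 had 65943, 63041 and 40577 against 28434, 21318 and 18557. Sb09g001020, described only as MPI, had 27572, 23409.7 and 17156 against 10446, 5934 and 4319.5. Their log2 fold changes were 1.57 ± 0.40, 1.31 ± 0.28 and 1.72 ± 0.33, and in none did the groups overlap. Among the called genes, 41 risers and 64 fallers had a mean of 10000 or more reads in either group. How many tested genes reach that level was not counted. These counts can therefore not be set beside the 3.16% and 4.01% of all tested genes. A pair of these, also chosen after the fact, shows the span: the sterol desaturase family gene Sb03g021040 went from 1204, 595 and 715 to 25345, 27564 and 22538 reads (4.91 ± 0.52), and the vacuolar proton-pumping pyrophosphatase Sb04g005710, which acidifies the vacuole, from 31367, 43401 and 47217 to 10716, 14094 and 13827 (-1.66 ± 0.20).

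Some of the leading leaf genes did not pass the test. The third most abundant leaf gene, Sb10g021330, which has no description, drew the most reads of the 20 leading genes: 436282, 679186 and 570907 with ABA and 373579.7, 702335 and 553124 with NaOH. The groups overlapped and the log2 fold change was 0.05 ± 0.69. The fifth, Sb09g019930-1, overlapped as well (-0.42 ± 0.45), and Sb05g027670, at rank 19, had 19518, 21249 and 19377 against 20274, 16080.2 and 17103 reads (0.17 ± 0.20). Sb09g028720, at rank 2, was lower in each ABA library, at 128659, 130872 and 132938 against 279118, 188399 and 280784, but did not pass (adjusted p = 0.287, edgeR), and neither did Sb07g005660 at rank 4 (-0.75 ± 0.41) or Sb02g032040 at rank 20 (-0.94 ± 0.43).

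**Figure D4:**
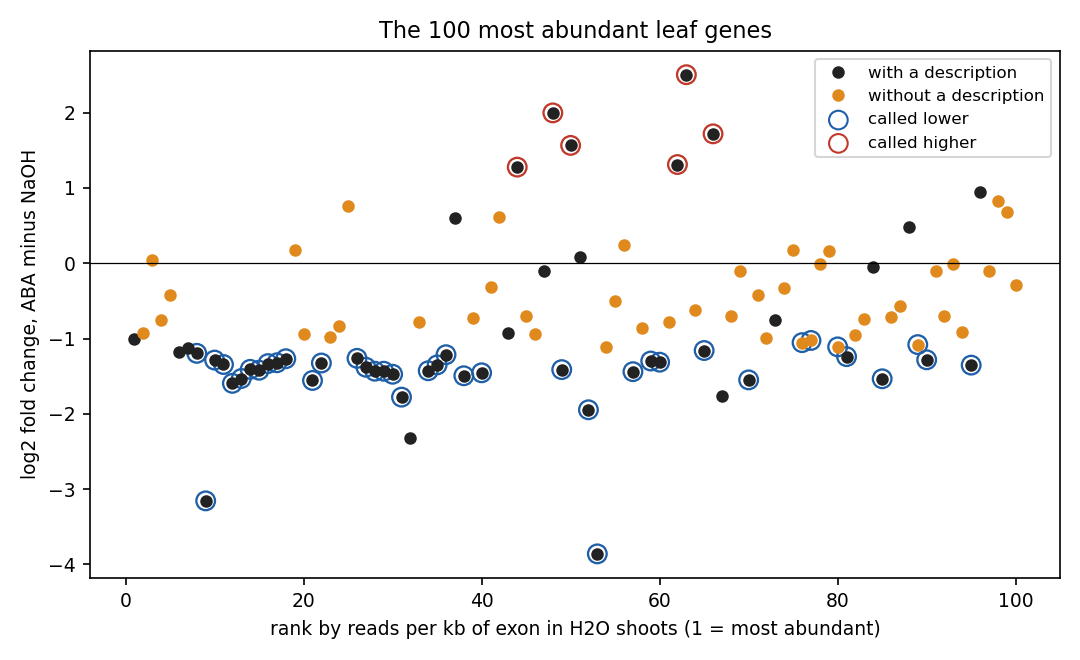
The 100 gene models with the highest reads per kb of exon in H2O shoots, by rank from 1, with the log2 fold change of ABA minus NaOH shoots; black points have a description in the study's tables, orange points have none, and rings mark the 40 genes called lower and the 6 called higher. Most points lie between 0 and -2, the 6 risers lie between ranks 44 and 66, and Sb10g021330 at rank 3 lies near 0.

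Genes that build and loosen the cell wall fell in part. Of 37 expansins and xyloglucan enzymes, which loosen and rebuild the wall of expanding cells, 11 fell and 1 rose (median -1.76, and -0.63 without NaOH replicate 2). Alpha-expansin 1 (Sb03g038290) went from 2977, 3592 and 5511 to 259.9, 269 and 296 reads, a log2 fold change of -3.87 ± 0.26 (adjusted p = 9.85e-09, edgeR) with ABA libraries that differed little. Expansin A4 (Sb09g023440) had 72.8, 114 and 88.8 against 502, 694 and 979.5 reads (-2.98 ± 0.23), and beta-expansin 6 (Sb01g029330) fell by 2.70 ± 0.27. Of 7 cellulose synthase-like genes 3 fell and none rose, among them CslH1 (Sb06g016770-1), from 2220.0, 2391 and 3365 to 347, 547 and 751 reads (-2.27 ± 0.31). Of 19 structural wall proteins, a list added after the values had been seen, 15 fell and 1 rose (median -1.45; 7 fell without replicate 3 of all groups). The abundant hydroxyproline-rich protein Sb04g009380 fell by 1.44 ± 0.19. Lignin genes were mixed, with 6 of 18 lower and 3 higher (median -1.18).

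Genes that respond to growth hormones or turn them over moved in both directions. All 7 type-A response regulators, a list added after the values had been seen, fell (median -2.11), and all 7 were called in every alternative that kept the depth and fold limits. These genes are switched on by cytokinin and dampen its signal. Response regulator 6 (Sb08g001140) had 378, 394 and 391 reads with NaOH and 20.0, 14.4 and 34.6 with ABA (-4.01 ± 0.28, adjusted p = 1.24e-08, edgeR). Its namesake Sb05g002590-1 fell by 2.38 ± 0.20, and the 2 genes described as response regulator 7, Sb04g022780 and Sb04g022785, by 1.82 ± 0.19 and 2.11 ± 0.27. The 5 genes of the cytokinin list itself, for its breakdown, conjugation and binding, had no call. Among gibberellin genes, GA 20-oxidase (Sb01g000580), a step of synthesis, fell from 135, 108 and 179 to 12.8, 31.6 and 35.5 reads (-2.36 ± 0.31), while the receptor GID1 (Sb09g020080-1) rose by 1.36 ± 0.31. GA 2-oxidase Sb03g035000, which inactivates gibberellins, rose by 1.25 ± 0.37, a call lost without ABA replicate 1 (1.07), NaOH replicate 1 (1.18) or NaOH replicate 2 (1.05). All 3 genes of auxin conjugation, another added list, fell: the glucosyltransferase Sb02g030020 by 3.37 ± 0.28, Sb05g002710 by 2.53 ± 0.34, and the amidohydrolase Sb02g007730, which frees auxin from its conjugates, by 2.11 ± 0.50.

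Genes of ethylene synthesis moved in both directions. The ACC synthase Sb03g003070, which makes the precursor of ethylene, had 1.67, 2.14 and 0 reads with NaOH and 181, 83.4 and 119 with ABA, a ratio of 100.5 with an exact 95% counting interval of 34.1 to 489.8. Of the ACC oxidases, which make ethylene from it, Sb04g034520 rose by 1.36 ± 0.18, Sb09g003800 fell by 1.78 ± 0.31 (adjusted p = 0.000349, edgeR), and Sb02g026280 stayed under the fold limit at -0.82 ± 0.27. Among transcription factors given a family by the study, 44 were called higher and 40 lower. The family labels, like the descriptions, exist only for genes that the study listed as changed. Counts by family have to be read beside the 17.9% of described genes that rose and the 18.8% that fell. Of 14 HD-ZIP genes 6 rose and 1 fell, of 9 heat shock factors 3 rose and none fell, and of 16 bHLH genes 2 rose and 6 fell. The AP2-ERF list of 15 had 5 risers and 2 fallers (median 0.80; 3 risers without replicate 3 of all groups). Of 9 genes given the NAC family 1 rose and 3 fell (median -0.73). Of the 2 genes that are NAC by their description, Sb08g001940 rose from 66.9, 13.9 and 60.04 to 615, 355 and 375 reads (3.29 ± 0.44) and NAC1 (Sb07g005610) fell by 1.81 ± 0.19. Of 9 genes described as WRKY 1 fell and none rose. Of 2 described clock genes, markers of time of day, 1 was called. Sb09g024255, described as the circadian clock coupling factor ZGT, rose from 6.69, 2.14 and 2.35 to 39.98, 30.2 and 35.5 reads (3.32 ± 0.94, adjusted p = 0.0193, edgeR), a call lost without NaOH replicate 2 (3.03) or NaOH replicate 3 (3.09). PRR73 (Sb01g038820) stood at 6556, 7020.2 and 8818 against 10125, 9033 and 11294 reads, a log2 fold change of -0.44 ± 0.16 that is under the fold limit; the part of any shift in time was not tested.

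Detoxifying and defence families changed member by member. Of 30 described glutathione S-transferases 9 fell and 3 rose (median -0.34), and the fallers numbered 5 without NaOH replicate 3 and 3 without replicate 3 of all groups. GST 19 (Sb10g022780) fell from 76.9, 219 and 218 to 2.86, 12.9 and 6.55 reads (-4.53 ± 0.54, adjusted p = 7.33e-06, edgeR). Of 36 class III peroxidases 5 fell and 3 rose (median -0.32; 3 fell without replicate 3 of all groups). Glutaredoxins, small proteins that reduce disulfides with glutathione and were listed after the values had been seen, fell in 7 of 9 cases and rose in 1 (median -2.62; 4 fell without replicate 3 of all groups). Glutaredoxin C15 (Sb08g017170) had 58.5, 83.4 and 62.7 against 246, 272 and 252 reads (-1.91 ± 0.30), and C14 (Sb08g017090) and C10 (Sb05g025900) fell by 3.24 ± 0.51 and 3.50 ± 0.64. Of 30 chitinases, thionins and pathogenesis-related proteins 10 fell and none rose (median -0.55; 6 fell without replicate 1 or replicate 3 of all groups), among them pathogenesis-related protein 5 (Sb08g022450) with 72.8, 27.3 and 58.9 against 789, 171 and 411 reads. Of 14 aquaporins, the water and solute channels, 4 fell and 2 rose: NIP2-1 (Sb04g028020) rose from 3368, 2199 and 2795 to 12727, 12723 and 10901 reads (2.12 ± 0.27), and PIP2-6 (Sb02g010830) fell by 3.02 ± 0.60.

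**Figure D5:**
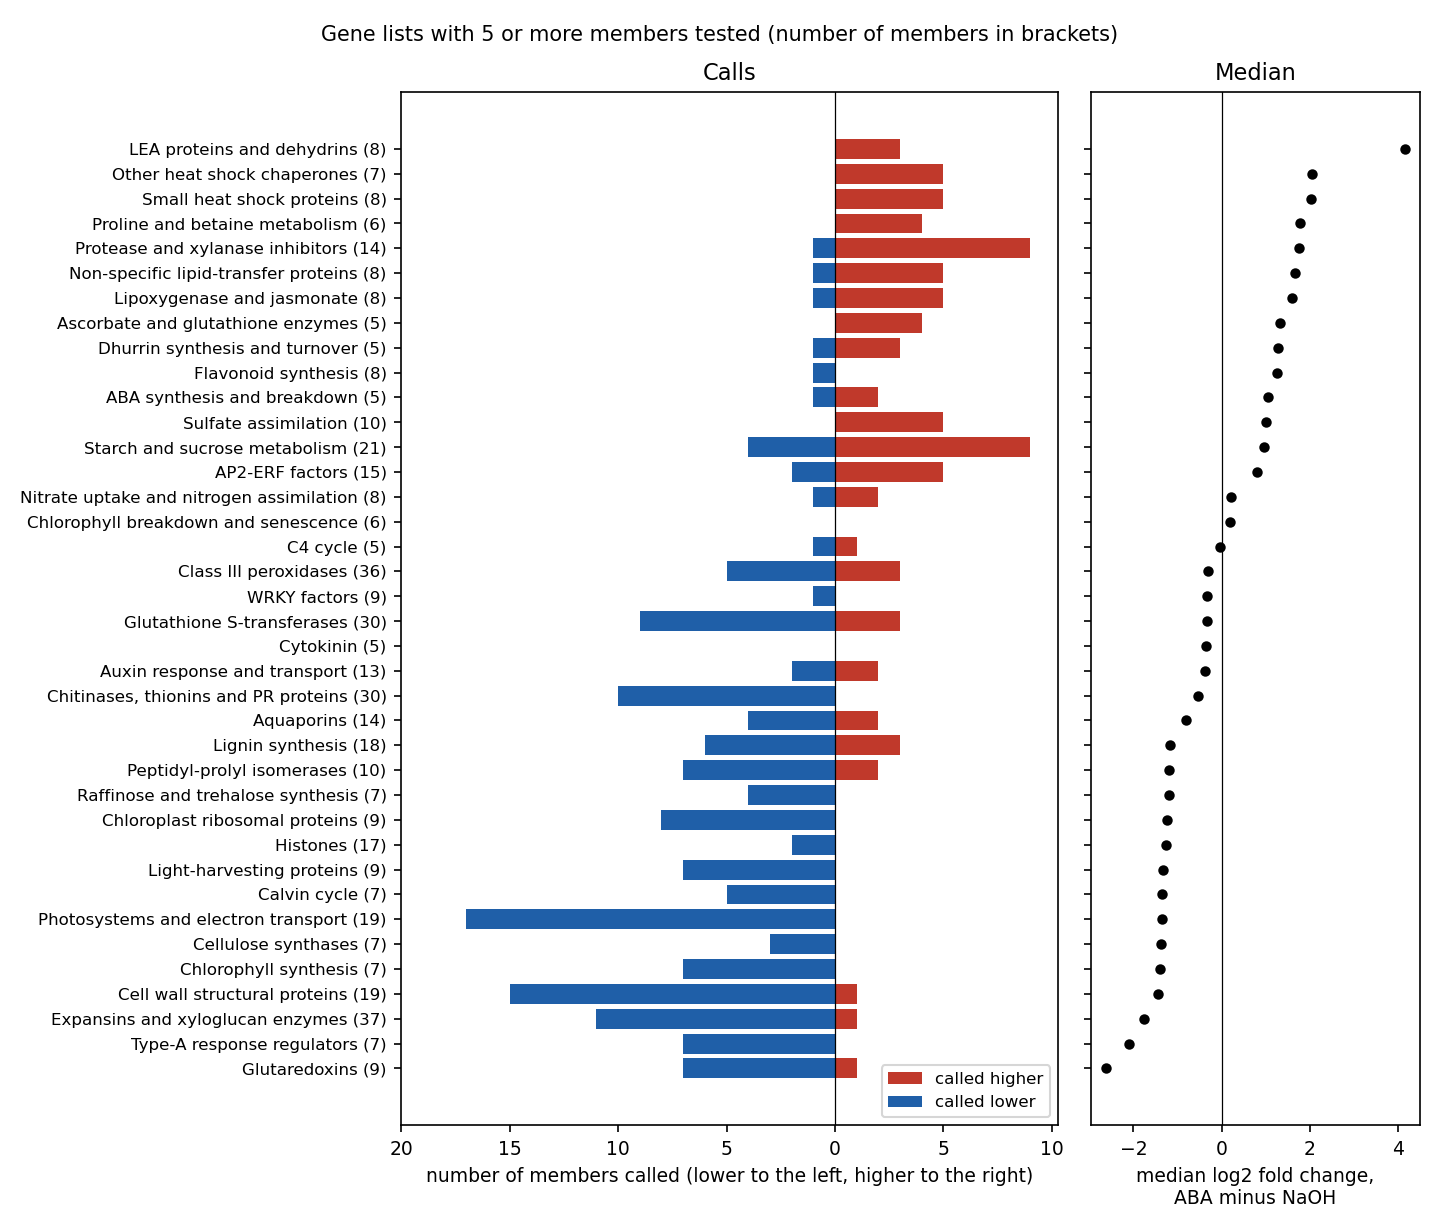
Gene lists with 5 or more described members tested (number in brackets), ordered by the median log2 fold change of ABA minus NaOH shoots, which the right panel shows; bars count members called higher (red) and lower (blue). Lists for LEA proteins, heat shock proteins and solutes stand at the top with calls almost only to the right, and lists for photosystems, wall growth, response regulators and glutaredoxins stand at the bottom.

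The other lists held few or mixed calls. Of 10 peptidyl-prolyl isomerases, protein-folding enzymes listed after the values had been seen, 7 fell and 2 rose (median -1.19). Without NaOH replicate 2 there were 5 fallers, and without replicate 3 of all groups 1. Of 13 auxin response genes 2 rose and 2 fell (median -0.38), and of 8 nitrogen genes 2 rose and 1 fell (median 0.22). Of 8 flavonoid genes the 1 that was called fell, although the list median was 1.25. Of 3 genes for raffinose breakdown, another added list, 2 rose, and 1 of 3 cell cycle genes did.

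The largest rises beside those named went mostly to genes whose function is not given. Sb07g021850 had 1 read in all NaOH libraries together and 393, 696 and 281 normalized reads with ABA, a ratio of 1023.0 (exact 95% counting interval 183.2 to 40443.7). The HD-ZIP gene Sb04g033380 likewise had 1 read with NaOH and 291, 220.1 and 238 normalized reads with ABA. Sb02g025160 had none with NaOH and 38.6, 70.5 and 52.4 with ABA, at least 42.5-fold higher against a floor of 3 reads over the group. Sb07g021840 and Sb07g015410, both of no stated function, reached means of 1358 and 1051 reads from 6.0 and 5.03. The oxidoreductase Sb03g034280 rose by 7.07 ± 1.30 and the metal-binding EC protein homolog Sb01g030345 by 7.05 ± 1.14, the latter with 283, 1823 and 256 reads in the ABA libraries and 3.34, 11.8 and 1.18 in the NaOH libraries, replicate 2 being highest in both groups. Sb06g004280 was even among the ABA libraries, at 298, 298 and 266.

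Among the largest falls, peroxidase 6 (Sb04g008630) went from 36.8, 91.1 and 55.3 to 2.86, 2.88 and 0 reads, a ratio of 39.9 (exact 95% counting interval 15.3 to 148.1), and missed the depth limit without NaOH replicate 2 (log2 fold change -4.71). Sb02g005350, of no stated function, fell from 237, 248 and 231 to 2.86, 14.4 and 2.81 reads with no overlap. The MYB-related factor Sb04g030510 fell by 4.59 ± 0.46 (adjusted p = 7.56e-07, edgeR), and polyamine oxidase Sb07g005780 changed by -4.93 ± 0.98, with NaOH libraries as uneven as 239, 15.0 and 344. Of no stated function either, Sb02g001860, Sb05g027150, Sb05g022280 and Sb09g030200 had log2 fold changes of -4.45, -4.26, -4.16 and -4.13, and the cyclase/dehydrase family gene Sb01g038150 one of -3.93.

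The 27 h in NaOH alone called no gene. Between NaOH and H2O shoots edgeR's quasi-likelihood test called 0 of 22667 genes, with 567 at an unadjusted p under 0.05; DESeq2 called 0 as well, and a common-dispersion exact test on library sizes called 6 higher and 5 lower. The ABA effect in shoots differed from that in roots of the same plants in 2167 genes (9.56%) by the interaction test, 1039 (4.58%) more positive and 1128 (4.98%) more negative in shoots. Of the light-harvesting gene Sb03g027030, for example, the log2 fold change was -3.86 in shoots and -0.55 in roots, a difference of -3.31 (adjusted p = 0.000609, edgeR). ABA 8'-hydroxylase 3 differed in size, at 2.96 and 8.21, whereas for BZ-1 (Sb03g030050-1, 6.41 and 6.58) no difference was called.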

How the data were processed

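RNA of 24 libraries was sequenced by the authors as single Illumina reads, trimmed to 50 bases and matched to sorghum build sbi1 with ELAND, allowing 2 errors and keeping unique matches. CASAVA 1.6 summed them over the exons of Sbi1.4 gene models without strand, so overlapping and antisense genes, and copies of a gene family, cannot be told apart. The deposited files give a count of aligned bases per gene, an RPKM value and a sequencing depth (coverage signal); aligned bases divided by 50 are the reads used here. The deposited RPKM values were not tested.

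Fits used edgeR 4.0.16 in R 4.3.3 over all 24 libraries in 8 groups, with TMM factors, robust quasi-likelihood tests, a filter on low counts that left 22667 of 34145 genes, and Benjamini-Hochberg adjustment. A call needed adjusted p under 0.05, at least 1 on the log2 scale and, for the shoot contrasts, 2X median depth. Shares were tested by exact permutation of 3 against 3 libraries, two-sided. For lists of described genes that p is descriptive, since the study chose those genes on the same samples. A zero group was set to a floor of 3 reads, and counting intervals cover counting error only. Scripts were tested on simulated data. Alternatives used DESeq2 1.42.0, other scalings, filters and thresholds, a replicate block, RTA version as a term, the 12 shoot libraries alone, and left-out libraries.

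Replicate numbers mark 3 hydroponic experiments per the study's methods, and same-numbered ABA and NaOH shoots deviated together (correlations 0.309, 0.344 and 0.199; other pairs -0.28 to -0.034).

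Gene descriptions (JGI, 4001 genes) came from the study's tables, because the reference names at hand could not be matched as planned. Of 47 gene lists 23 were reworded to fit them, and 12 were added after values had been seen. The members and lists were chosen with earlier results of these data known. Genes were named if they were among the 12 largest rises or falls (same direction in all 3 pairs, at least 50 reads), among up to 4 called genes of a list with the smallest adjusted p, in a list of at most 6 members or an ABA pathway list, or among the 20 most abundant leaf genes; 8 others are marked in the text. Not all genes that met the rule are printed. The authors' own comparison columns in their tables, which hold fold changes and p-values, were not used. Some primers of the study are not reported here.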

Additional observations from a re-analysis of the deposited data

Results flagged for a closer look

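Of the 144 genes named, 68 responded to ABA differently in shoots and in roots by edgeR's interaction test over 22667 genes (Benjamini-Hochberg adjusted p under 0.05 and a difference of at least 1 on the log2 scale; 9.56% of all tested genes). Values are the log2 fold change in shoots minus that in roots; 24 are positive and 44 negative. No explanation was tested.

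More positive in shoots were dehydrin DHN1 (2.13), ascorbate peroxidase 7 (1.67), VTC2 (1.92), the ACC synthase Sb03g003070 (7.23), the S-like ribonuclease Sb02g031160 (4.22), the lipoxygenases Sb01g011050 (1.92) and Sb03g042440 (2.25), and beta-amylase Sb01g047500 (2.82). The same held for the phosphoenolpyruvate carboxylase kinases Sb04g036570 (3.01) and Sb04g026490 (1.15) and phosphoenolpyruvate carboxylase 2 (1.11). All 4 named sulfate genes belong here: the transporter ST1 (3.26), ATP sulfurylase Sb01g008450 (2.42), the reductase Sb02g034370 (2.38) and the kinase Sb05g025240 (1.53). The others were dhurrinase Sb08g007570 (1.72), xylanase inhibitor Sb02g004660 (2.77), the ACC oxidases Sb04g034520 (1.93) and Sb02g026280 (2.46), Sb05g022280 (3.33), NAC gene Sb08g001940 (2.66), aquaporin NIP2-1 (3.34), the 22 kDa drought-inducible protein Sb08g004190-1 (3.51) and MPI (2.72).

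All 3 ABA 8'-hydroxylases were more negative in shoots: gene 3 at -5.26, gene 1 at -1.83 and gene 2 at -6.51. So were the group 3 LEA protein Sb09g027110-1 (-5.90), the small heat shock protein Sb03g006870 (-3.97), HSP101 (-2.93), PEAMT Sb03g031950 (-1.53), hydroxymandelonitrile lyase (-4.84), asparagine synthetase Sb05g000440 (-3.70) and the sterol desaturase family gene Sb03g021040 (-4.45), each of which rose in shoots. Many of these rises were therefore larger in roots.

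Among genes that fell in shoots the differences were -3.31 and -3.68 for the light-harvesting genes Sb03g027030 and Sb03g027040, -1.56 for light-harvesting protein type III, -1.45 for oxygen-evolving enhancer protein 3-1, -2.27 for plastocyanin and -2.26 for photosystem I subunit XI. They were -1.20 for triosephosphate isomerase, -1.05 for phosphoglycerate kinase, -2.23 for glyceraldehyde-3-phosphate dehydrogenase A, -1.28 for uroporphyrinogen decarboxylase, -2.01 and -1.93 for the magnesium chelatase subunits, -2.54 for protochlorophyllide reductase B and -1.42 for ribosomal protein L12. In growth they were -3.22 for alpha-expansin 1, -2.44 for expansin A4, -2.21 for beta-expansin 6, -2.62 and -2.08 for the response regulators Sb08g001140 and Sb05g002590-1, -4.16 for GA 20-oxidase, -2.78 for the hydroxyproline-rich protein, -2.34 for cell wall invertase and -2.59 for beta-amylase Sb02g035600-1. They were -1.80 for cytochrome P450 71E1, -1.84 for the ammonium transporter, -5.10 for the MYB-related factor, -3.56 for GST 19, -4.25 for Sb09g030200, -2.32 for PIP2-6, -3.70 for pathogenesis-related protein 5 and -2.54 for the vacuolar pyrophosphatase. Of genes not called in shoots, Sb10g021330 differed by -3.48, Sb02g032040 by -2.40 and PRR73 by -1.87.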

How the results depend on the processing

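Over 21 alternatives, 2944 of 3023 values of the 144 named genes kept their direction and side of the threshold, and 106 genes did so in every one. Of 125 called genes 29 lost the call somewhere, 15 of them without any library being left out. Of these 15, Sb04g030640-1 lost it with no filter on low counts (adjusted p = 0.0501, edgeR). Sb08g001870 lost it in the fit of the 12 shoot libraries (adjusted p = 0.0529, edgeR). The rest of the 15 lost it there through the stricter depth limit of 5X, which drops genes of low depth by definition. With replicate 1 left out of all groups the calls of Sb02g035600-1, Sb02g036260, Sb02g036380, Sb03g004560, Sb03g035000, Sb04g030640-1, Sb04g030660, Sb05g003480, Sb06g018880-1, Sb07g005780, Sb08g004190-1, Sb08g005300-1, Sb09g024255 and Sb10g000230 were lost. With replicate 2 left out those of Sb01g005250, Sb03g035000, Sb04g008630 and Sb08g001870 were, and with replicate 3 those of Sb02g007730, Sb02g035600-1, Sb04g030640-1, Sb08g001870, Sb08g004190-1, Sb09g020080-1 and Sb09g024255. The sign turned for 3 uncalled genes: SAPK3 (Sb01g028760-1, -0.0535 without replicate 3), carbonic anhydrase (Sb03g029170-1, 0.15 without replicate 2 and -1.12 to 0.64 over single libraries left out, the latter without NaOH replicate 2) and Sb10g021330 (-0.0039 without replicate 1, -0.11 without ABA replicate 2, -0.16 without NaOH replicate 1). Without a fold limit 4127 genes were called, 2097 higher and 2030 lower. The exact test called 11 for NaOH against H2O, 6 and 5. With the replicate block, 753 genes were higher and 956 lower, and Sb07g021260-1 was the 1 named gene whose call changed (-1.16). Leaving out libraries gave 1081 to 1698 called genes, 505 to 988 of them lower, and for shoots against roots 1030 to 1876 (490 to 934 and 540 to 942).

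Of 56 list medians under these settings 1096 of 1176 values moved by less than the replicate spread. In the fit of the 12 shoot libraries medians were 2.32 for type 2C phosphatases, 2.70 for small heat shock proteins, 4.17 for oil bodies, 2.01 for lipid-transfer proteins, -0.81 for glutathione S-transferases, -0.92 for lignin, 1.93 for lipoxygenases, 1.04 for AP2-ERF and 1.26 for sulfate. Library sizes and the exact test each gave -1.22 for Calvin, -1.27 for chlorophyll synthesis, 0.32 for its breakdown, 0.28 for cell cycle, 0.40 for ethylene, 1.07 for disease resistance, 1.14 for sulfate and -1.97 for response regulators. RTA version as a term gave -1.22 (-1.216) for chlorophyll synthesis, and DESeq2 -1.04 for expansins. With TMM-effective denominators the share differences in points were -12.3 for abundant leaf genes, -4.1 for light-harvesting, -1.03 for Calvin and -0.145 for plastid ribosomes.

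With a single library, or a replicate of all groups, left out, medians ranged from 5.01 to 6.30 for ABRE-type bZIP factors, 1.88 to 2.49 for small heat shock proteins, 0.42 to 0.92 for heat stress factors, -1.33 to -0.996 for raffinose and trehalose, -0.58 to -0.22 for glutathione S-transferases, -0.40 to 0.0 for peroxidases, -0.55 to 0.44 for C4, -1.49 to -1.22 for Calvin, -1.49 to -1.21 for chlorophyll synthesis, -0.0323 to 0.41 for its breakdown, -1.37 to -1.06 for plastid ribosomes, 0.0163 to 0.27 for cell cycle, -2.28 to -0.63 for expansins, -1.42 to -0.50 for cellulose synthases, -0.53 to -0.11 for cytokinin, 0.67 to 1.05 for AP2-ERF, 0.23 to 1.32 for flavonoids, -0.73 to -0.0805 for chitinases, -1.26 to -0.98 for peptidyl-prolyl isomerases, 1.27 to 1.48 for ascorbate enzymes, -3.49 to -2.17 for glutaredoxins, 0.90 to 1.11 for sulfate and -2.86 to -2.25 for auxin conjugation. The causes were not tested. In the main shoot contrasts genes under 2X median depth in both groups can pass no call. The test of shoots against roots had no depth limit.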
